A study of Solanum lycopersicum var. cerasiforme with 6 samples.

Results

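Glutathione transferases and antioxidant enzymes were described in pericarp RNA of cherry tomato fruits that had been injected with ABA, with NDGA or with water. Members were the entries of a single annotated gene whose annotation named glutathione, superoxide dismutase, catalase, ascorbate, peroxidase, peroxiredoxin or thioredoxin, apart from genes that the authors listed as transcription factors or as ABA-, ethylene- or ripening-related. This rule gave 258 entries of 232 genes, of 24556 single-gene entries and 31571 entries in all. The fruits (Solanum lycopersicum var. cerasiforme, cultivar XinTaiyang) were picked mature green, and each received an injection of 25 μL. The solution held 10 mM ABA or 1 mM NDGA, and the control fruits (CK) received distilled water. They were kept in the dark at 20 °C, and pericarp without seeds was taken at day 9. Each group had 2 libraries, from fruits of successive weeks, and each library pooled the RNA of 10 fruits. NDGA, nordihydroguaiaretic acid, served to repress ABA synthesis, but it also inhibits lipoxygenases and scavenges radicals, and these actions cannot be told apart here.

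The deposited values were FPKM (mapped fragments per kilobase of transcript, scaled to library size), given as the authors' mean of the 2 libraries. With 1 value per group there was no replicate check and no test, and every difference below describes these means only. The number of fragments behind each value was unknown. In whole pericarp, fewer cells of a type and less RNA per cell cannot be told apart. The ripening state was checked with phytoene synthase (Solyc03g031860.2), the entry enzyme of carotenoid synthesis, which had 5451 FPKM with ABA, 1339 FPKM with NDGA and 2795 FPKM in CK. Polygalacturonase (Solyc10g080210.1) and E8 (Solyc09g089580.2), which are highly expressed in ripening tomato, were listed at 0 with ABA. Their values were 2309 and 7166 FPKM with NDGA and 10575 and 11339 FPKM in CK. Of the 154 single-gene entries with a mean above 1000 FPKM, 23 were listed at 0 in at least 1 group, so an exact 0 in these values may be a missing estimate and no ratio was formed with it.

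Cells keep reactive oxygen species in check with several enzyme systems. Superoxide dismutases turn superoxide into hydrogen peroxide, and catalases, ascorbate peroxidases, glutathione peroxidases and peroxiredoxins remove the peroxide. The ascorbate-glutathione cycle regenerates the spent ascorbate and glutathione, thioredoxins reduce peroxiredoxins and other proteins, and glutathione transferases attach glutathione to toxic or reactive compounds. Class III peroxidases are secreted enzymes that act largely on the cell wall, where they cross-link or loosen it. Ripening of tomato fruit is known as an oxidative process, in which green chloroplasts become chromoplasts and the wall softens.

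Most members differed little between the groups. Of the 258 entries, 194 had a mean over the groups of at least 1 FPKM and 64 lay below it. A mean of 10 to under 100 FPKM was the most frequent, with 95 entries, and 3 entries reached 1000 FPKM. In 34 entries a group was listed at 0, and 31 of these had a mean below 1 FPKM. With ABA against CK, 7 of the 192 entries with a ratio were at least 2-fold higher and 23 at least 2-fold lower, and 162 were within 2-fold. Over all single-gene entries with a ratio, 4.72% were higher and 10.1% lower by the same rule, so that the members' shares of 3.65% and 12% lay near this background. With NDGA against CK, 15 of 193 were higher (7.77%, against 7.41% of all entries) and 5 were lower (2.59%, against 3.11%). For ABA against NDGA, 14 of 191 entries were at least 2-fold higher with ABA (7.33%, against 6.98% of all entries) and 40 were lower (20.9%, against 16.3%). Within 2-fold lay 162, 173 and 137 members in these comparisons, and over all entries 14.8%, 10.5% and 23.3% were at least 2-fold apart either way. The median log2 ratio of the members was -0.08, -0.03 and -0.04 for ABA against CK, NDGA against CK and ABA against NDGA, beside medians of 0.02, 0.03 and -0.02 over all entries. The ratios to CK share the CK values, so a high or low CK value moves both of them.

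**Figure D1:**
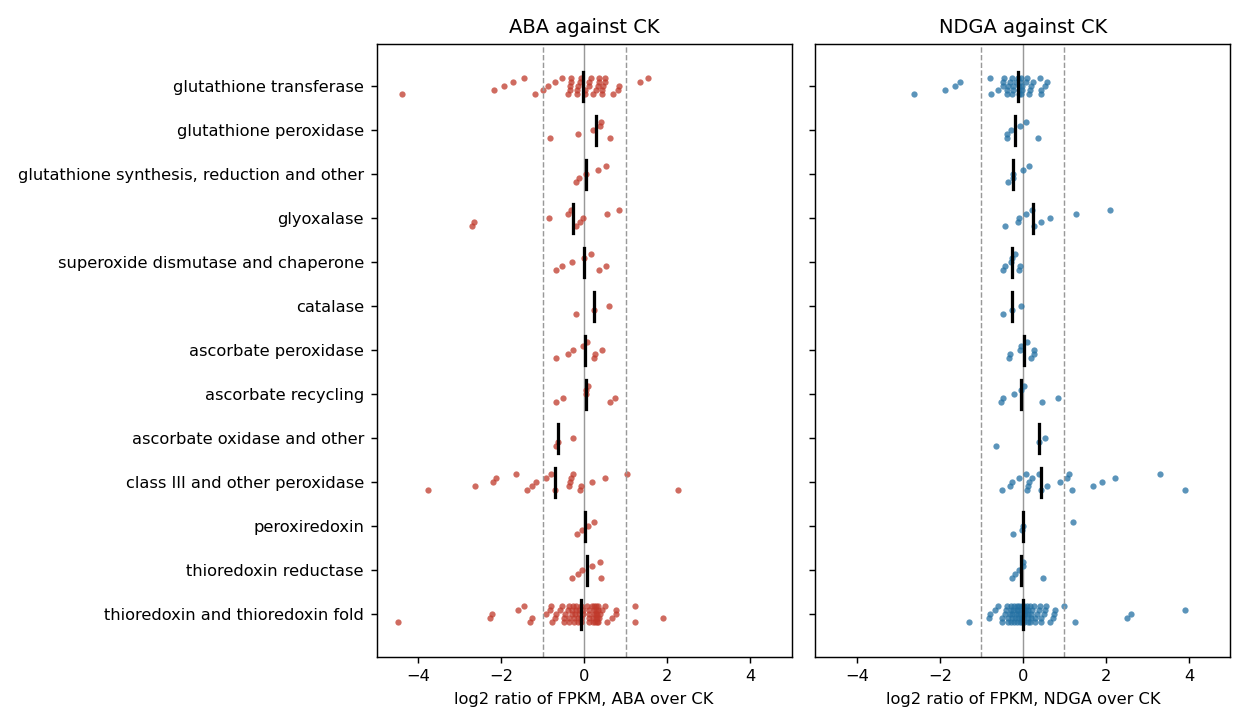
Log2 ratios of FPKM of the members with a mean of at least 1 FPKM, by enzyme class, for ABA over CK (left) and NDGA over CK (right). Points are entries, black bars class medians and dashed lines 2-fold limits. The ratios of the peroxidases lie between -3.77 and 2.26 for ABA and between -0.51 and 3.92 for NDGA, while all superoxide dismutases, catalases and ascorbate peroxidases stay within the limits.

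Glutathione transferases were led by a single gene of the tau subfamily, the largest plant-specific subfamily, many of whose enzymes act on xenobiotics. Solyc07g056420.2, annotated as glutathione S-transferase TAU 25 after its Arabidopsis homologue, had 3932 FPKM with ABA, 429 FPKM with NDGA and 1342 FPKM in CK. It was thus 2.93-fold higher with ABA than in CK (log2 1.55) and 3.13-fold lower with NDGA than in CK (log2 -1.64). Between ABA and NDGA it differed 9.16-fold. Its level ranked 52 among the 24556 single-gene entries with ABA, 304 with NDGA and 109 in CK. The locus given for it, on chromosome 7 from 61527120 to 61756987 of SL2.40, spans 229868 bases and is given for 26 entries in all, so it does not place the gene alone.

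This gene also set the total of the subfamily. The 30 tau entries summed to 4767 FPKM with ABA, 1086 FPKM with NDGA and 2083 FPKM in CK, and Solyc07g056420.2 made up 82.5%, 39.5% and 64.4% of these sums. Without it, the remaining tau entries summed to 835 FPKM with ABA, 657 FPKM with NDGA and 741 FPKM in CK, a log2 ratio of 0.17 for ABA against CK and -0.17 for NDGA against CK. The other tau genes therefore differed far less as a total, and singly they went both ways. Of the 19 tau entries with a mean of at least 1 FPKM, 2 were at least 2-fold higher with ABA than in CK (10.5%, against 4.72% of all entries). At least 2-fold lower were 4 (21.1%, against 10.1%). Of the 2 higher, Solyc09g011640.2 reached a mean of at least 1 FPKM only through its value with ABA. It had 2.46 FPKM with ABA and 0.962 FPKM in CK, and its mean was 1.14 FPKM. The 4 lower are entries and include both of Solyc01g081250.2. With NDGA, none of the 18 tau entries with a ratio was 2-fold higher than CK, against 7.41% of all entries. At least 2-fold lower were 4 (22.2%, against 3.11%). They include only the smaller entry of Solyc01g081250.2, at log2 -1.89, whereas its larger entry lay at -0.47. They also include Solyc09g011510.2, at low values of 0.235 FPKM with NDGA and 1.46 FPKM in CK.

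Of the neighbouring tau genes on chromosome 7, the nearest shared the pattern of Solyc07g056420.2. The others with a mean of at least 1 FPKM did not. The entry that merges Solyc07g056430.2 and Solyc07g056440.2, also annotated as TAU 25 and in no count here because it is not a single gene, had 241 FPKM with ABA, 38 FPKM with NDGA and 96 FPKM in CK. By contrast, Solyc07g056510.2, also annotated as TAU 25, had 19.1 FPKM with ABA, 58.3 FPKM with NDGA and 62.9 FPKM in CK, which was 1.72 lower with ABA than in CK on the log2 scale. Solyc07g056490.2 had 90.3 FPKM with ABA, 110 FPKM with NDGA and 113 FPKM in CK, and Solyc07g056500.2 had 42.5, 36.7 and 34 FPKM. These genes stayed within 0.33 of CK on the log2 scale. The remaining members of the group, Solyc07g056450.2 and Solyc07g056460.2, had at most 0.204 FPKM in any group. At this low level Solyc07g056450.2 had 0.204 FPKM with ABA, 0.0322 FPKM with NDGA and 0.146 FPKM in CK.

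The largest run of neighbouring transferase genes lay on chromosome 9, where 13 tau genes occupied positions 4809979 to 4905768, and only 6 of them had a mean of at least 1 FPKM. Solyc09g011650.2 (TAU 8) was the most abundant, with 102 FPKM with ABA, 52.2 FPKM with NDGA and 79.6 FPKM in CK. Solyc09g011560.2 had 24.9 FPKM with ABA, 4.86 FPKM with NDGA and 13.9 FPKM in CK, and so was highest with ABA and lowest with NDGA. A few genes away, Solyc09g011600.2 was low with ABA only, at 10.9 FPKM, against 29.1 FPKM with NDGA and 29.5 FPKM in CK. Solyc09g011580.2 was lower after either injection, with 27.7 FPKM with ABA and 26.5 FPKM with NDGA, against 45.1 FPKM in CK. Solyc09g011510.2 (2.07, 0.235 and 1.46 FPKM with ABA, with NDGA and in CK) and Solyc09g011640.2 (2.46 FPKM with ABA, listed at 0 with NDGA, 0.962 FPKM in CK) were low throughout, and the other 7 genes had at most 1.96 FPKM in any group. As a sum the 13 genes had 175 FPKM with ABA, 115 FPKM with NDGA and 172 FPKM in CK. Similarity of these neighbours was not measured, and if they share reads, their single values are uncertain.

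**Figure D2:**
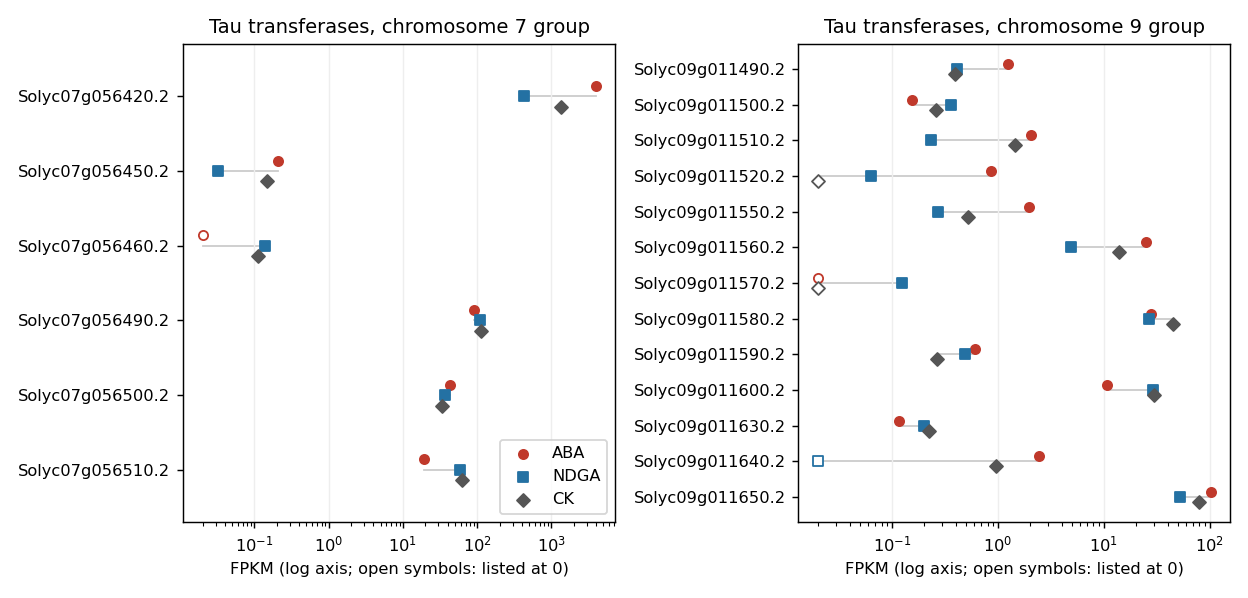
FPKM of the neighbouring tau glutathione transferase genes of chromosome 7 (left) and chromosome 9 (right), in gene order, with ABA, with NDGA and in CK on a log axis; values listed at 0 are drawn as open symbols at 0.02. Solyc07g056420.2 stands at 3932 FPKM with ABA, against 429 FPKM with NDGA, while the tau genes Solyc07g056490.2 and Solyc07g056500.2 show little spread.

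Among the other tau genes, Solyc01g099590.2 had 407 FPKM with ABA, 216 FPKM with NDGA and 253 FPKM in CK (log2 0.69 for ABA against CK and -0.23 for NDGA against CK). Solyc10g084960.1 had 2.86 FPKM with ABA, 7.68 FPKM with NDGA and 5.68 FPKM in CK. Solyc01g081250.2 had 2 entries, both lower than CK with ABA, at 2.44 FPKM against 5.53 FPKM and at 0.384 FPKM against 8.04 FPKM. The order of the groups differed between these genes.

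The remaining transferases were mostly closer to CK. Phi transferases, a further plant subfamily, were led by Solyc06g009020.2 (phi 8), with 558 FPKM with ABA, 431 FPKM with NDGA and 514 FPKM in CK. All 4 phi entries with a mean of at least 1 FPKM were above CK with ABA, as were 52.1% of all entries. They were below CK with NDGA, as were 47.1% of all entries. These phi ratios were at most 0.49 and 0.38 from CK on the log2 scale. The counts are of entries, since Solyc06g009020.2 and Solyc12g094430.1 gave 2 entries each. The theta transferase Solyc12g056250.1 had 47.5 FPKM with ABA, 117 FPKM with NDGA and 87.1 FPKM in CK, while its relatives Solyc08g080900.2 (70.3, 64.4 and 79.6 FPKM with ABA, with NDGA and in CK) and Solyc08g080910.2 (24, 18.1 and 21.6 FPKM) stayed near CK. The lambda transferase Solyc04g009530.2 had 1.01 FPKM with ABA, 4 FPKM with NDGA and 3.82 FPKM in CK, and Solyc09g007150.2, of no named subfamily, had 0.881 FPKM with ABA, 4.36 FPKM with NDGA and 3.95 FPKM in CK. These low genes were 1.93 and 2.16 lower with ABA than in CK on the log2 scale. Across all 40 transferase entries with a mean of at least 1 FPKM, the median log2 ratio was -0.03 for ABA against CK and -0.11 for NDGA against CK, and 28 of 39 entries lay below CK with NDGA, where 47.1% of all entries did. Solyc11g072190.1 was counted here by its annotation, but its text also names the translation factor EF1B, so it is not known as a detoxifying enzyme.

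Glutathione peroxidases, which in plants draw mostly on thioredoxin to reduce peroxides, differed moderately. Solyc08g080940.2 (glutathione peroxidase 6) had 429 FPKM with ABA, 213 FPKM with NDGA and 279 FPKM in CK, and Solyc06g073460.2 (glutathione peroxidase 2) had 268, 155 and 201 FPKM. Both were highest with ABA and lowest with NDGA, but neither was 2-fold away from CK. The neighbours Solyc12g056230.1 and Solyc12g056240.1, both annotated as glutathione peroxidase 8, differed in order. Solyc12g056230.1 had 108 FPKM with ABA, 76.4 FPKM with NDGA and 93.1 FPKM in CK, whereas Solyc12g056240.1 had 10.3 FPKM with ABA, 23.5 FPKM with NDGA and 18.2 FPKM in CK. Solyc08g006720.2 (glutathione peroxidase 7) and Solyc09g064850.2 (glutathione peroxidase 4) stayed within 0.38 of CK on the log2 scale. None of the 6 entries passed 2-fold against CK in either comparison.

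Glutathione is made by glutamate-cysteine ligase, the controlling step, and by glutathione synthetase. Glutamate-cysteine ligase (Solyc08g081010.2), which was not a member by its annotation text, had 580 FPKM with ABA, 173 FPKM with NDGA and 342 FPKM in CK (log2 0.76 for ABA against CK and -0.99 for NDGA against CK). Glutathione synthetase 2 (Solyc01g098610.2) had 10.3 FPKM with ABA, 8.82 FPKM with NDGA and 11.3 FPKM in CK. The ligase thus spread widely between the groups and the synthetase hardly at all. Glutathione reductase, which restores oxidised glutathione with NADPH, was given as Solyc09g091840.2 (75.9, 62.2 and 73.1 FPKM with ABA, with NDGA and in CK) and as Solyc09g065900.2, whose larger entry had 63.6, 42.6 and 50.7 FPKM. S-formylglutathione hydrolase (Solyc04g016360.2), the last step of formaldehyde detoxification, had 83.5 FPKM with ABA, 106 FPKM with NDGA and 95.1 FPKM in CK.

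Glyoxalase I uses glutathione to detoxify methylglyoxal, a by-product of sugar metabolism, and 12 entries carried an annotation of its family. Solyc09g082120.2 was the most abundant, with 64.2 FPKM with ABA, 134 FPKM with NDGA and 116 FPKM in CK. Solyc11g069040.2 had 37.9 FPKM with ABA, 46.8 FPKM with NDGA and 50 FPKM in CK. Solyc01g088010.1 had 9.45 FPKM with ABA, 28.7 FPKM with NDGA and 11.8 FPKM in CK, and so was high with NDGA only. The widest relative spread was that of Solyc12g042840.1, with 0.224 FPKM with ABA, 6.01 FPKM with NDGA and 1.41 FPKM in CK. Of the 10 entries with a mean of at least 1 FPKM, 8 were below CK with ABA and 7 were above CK with NDGA, with median log2 ratios of -0.26 and 0.24. Of all entries, 47.9% were below CK with ABA and 52.9% above CK with NDGA. Both entries of Solyc11g062280.1 are among the 8 and among the 7.

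Superoxide dismutases and catalases held some of the most abundant members and stayed close to CK. The cytosolic copper/zinc superoxide dismutase 1 (Solyc01g067740.2, chromosome 1, 69074002 to 69078931) had 2351 FPKM with ABA, 1569 FPKM with NDGA and 2104 FPKM in CK. It made up 78.2%, 76.6% and 78.2% of the summed FPKM of the class with ABA, with NDGA and in CK. The mitochondrial manganese enzyme (Solyc06g049080.2) had 278 FPKM with ABA, 157 FPKM with NDGA and 192 FPKM in CK, and copper/zinc superoxide dismutase 3 (Solyc03g062890.2) had 185, 104 and 144 FPKM. These enzymes were highest with ABA. Copper/zinc superoxide dismutase 2 (Solyc11g066390.1), whose Arabidopsis homologue is a chloroplast enzyme, was lowest with ABA, at 53 FPKM, against 70.5 FPKM with NDGA and 84.9 FPKM in CK. The iron enzyme Solyc06g048410.2 had 105 FPKM with ABA, 113 FPKM with NDGA and 129 FPKM in CK. All 7 entries with a mean of at least 1 FPKM were below CK with NDGA, where 47.1% of all entries were. They lay 0.07 to 0.47 lower on the log2 scale, and none reached 2-fold.

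Catalase, the peroxisomal enzyme that splits hydrogen peroxide without a reductant, was dominated by Solyc12g094620.1 (chromosome 12, 63141362 to 63145088). It had 3537 FPKM with ABA, 2916 FPKM with NDGA and 4081 FPKM in CK, which was 91.7%, 93.1% and 94.3% of the summed FPKM of the class. Solyc02g082760.2 had 177 FPKM with ABA, 125 FPKM with NDGA and 150 FPKM in CK. Solyc04g082460.2 had 144 FPKM with ABA, 92 FPKM with NDGA and 95.1 FPKM in CK. The main gene was thus highest in CK and the others highest with ABA. All 3 were annotated as catalase 2 and were lower than CK with NDGA, by 0.05 to 0.48 on the log2 scale. Below CK with NDGA lay 47.1% of all entries.

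**Figure D3:**
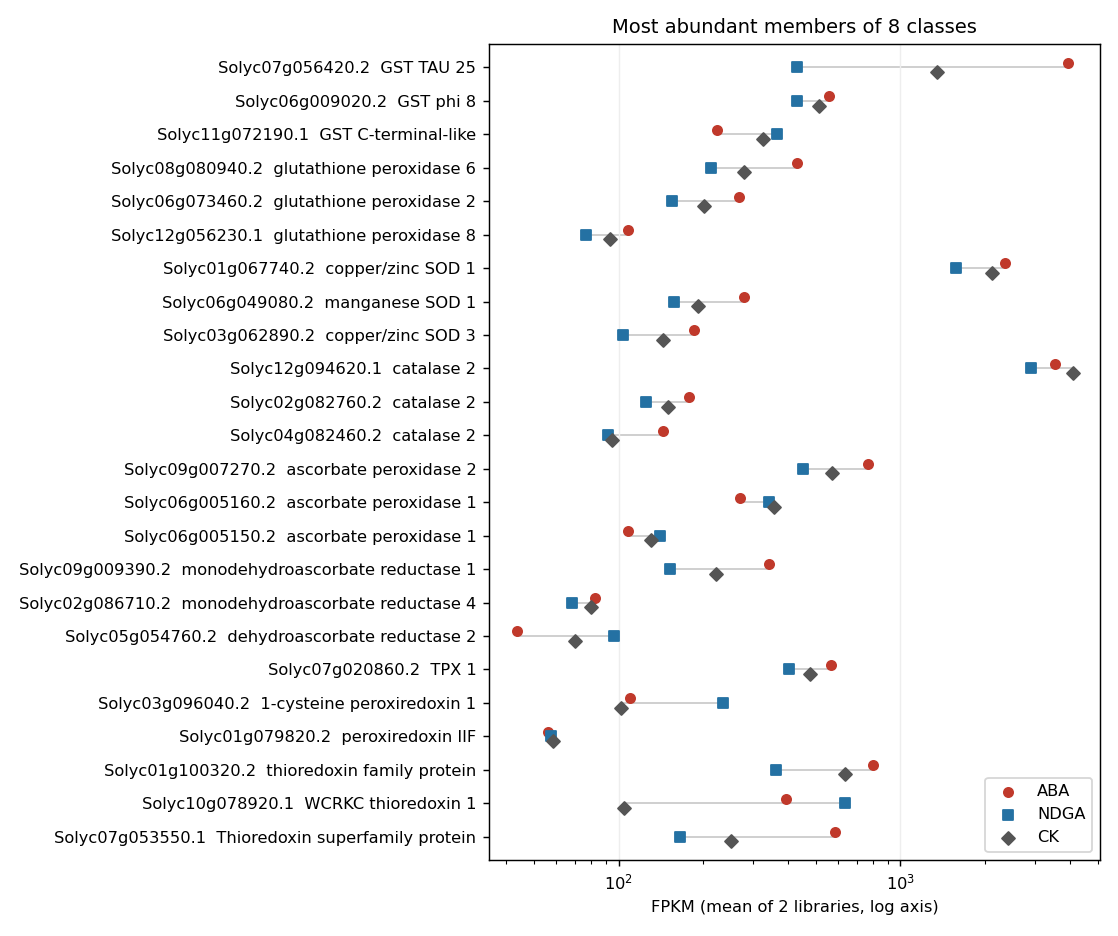
FPKM of the 3 most abundant entries in each of 8 enzyme classes with ABA, with NDGA and in CK, on a log axis; each symbol is the authors' mean of 2 libraries. Solyc07g056420.2 and Solyc10g078920.1 spread widely, while catalase Solyc12g094620.1 lies between 2916 and 4081 FPKM.

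Ascorbate peroxidases, which remove peroxide at the cost of ascorbate, showed opposite orders in their cytosolic forms. Ascorbate peroxidase 2 (Solyc09g007270.2) had 766 FPKM with ABA, 451 FPKM with NDGA and 573 FPKM in CK. Ascorbate peroxidase 1 (Solyc06g005160.2) had 270 FPKM with ABA, 342 FPKM with NDGA and 356 FPKM in CK, and its neighbour Solyc06g005150.2 had 108, 140 and 131 FPKM. The first was highest with ABA and the pair on chromosome 6 was lowest with ABA. The chloroplast forms also differed, since the stromal enzyme (Solyc06g060260.2) had 78.2 FPKM with ABA, 60.2 FPKM with NDGA and 74.8 FPKM in CK and the thylakoid enzyme (Solyc11g018550.2) had 7.52, 13.7 and 11.9 FPKM. None of the 8 entries with a mean of at least 1 FPKM passed 2-fold in any comparison.

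Recycling of ascorbate runs through monodehydroascorbate reductase and dehydroascorbate reductase, and the leading genes of these enzymes had opposite orders. Monodehydroascorbate reductase 1 (Solyc09g009390.2) had 342 FPKM with ABA, 153 FPKM with NDGA and 222 FPKM in CK (log2 0.62 for ABA against CK and -0.54 for NDGA against CK). Dehydroascorbate reductase 2 (Solyc05g054760.2) had 43.5 FPKM with ABA, 96.3 FPKM with NDGA and 69.8 FPKM in CK (log2 -0.68 and 0.46). Between ABA and NDGA, each therefore differed more than 2-fold, in opposite directions. Monodehydroascorbate reductase 4 (Solyc02g086710.2), with 82.3, 68.3 and 79.6 FPKM with ABA, with NDGA and in CK, and monodehydroascorbate reductase 6 (Solyc08g081530.2), with 25.2, 23.4 and 24.3 FPKM, hardly differed. Dehydroascorbate reductase 1 (Solyc11g011250.1) had 35.7, 34.6 and 33.8 FPKM in its larger entry and 21.6 FPKM with ABA, 9.22 FPKM with NDGA and 12.8 FPKM in CK in the smaller. A further dehydroascorbate reductase 2 gene (Solyc06g075520.2) had 3.53 FPKM with ABA, 9.13 FPKM with NDGA and 5.06 FPKM in CK in its larger entry. Its smaller entry, with a mean below 1 FPKM, lay at log2 1.21 for ABA against CK and 1.69 for NDGA against CK. Ascorbate oxidase (Solyc01g008830.1), a wall enzyme that oxidises ascorbate outside the cell, had 2.81 FPKM with ABA, 4.39 FPKM with NDGA and 3.38 FPKM in CK. The entries of nucleobase-ascorbate transporter 12 (Solyc11g066900.1), named for ascorbate but not an antioxidant enzyme, had 3.68, 8.31 and 5.74 FPKM and 3.84, 3.92 and 6.16 FPKM with ABA, with NDGA and in CK.

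**Figure D4:**
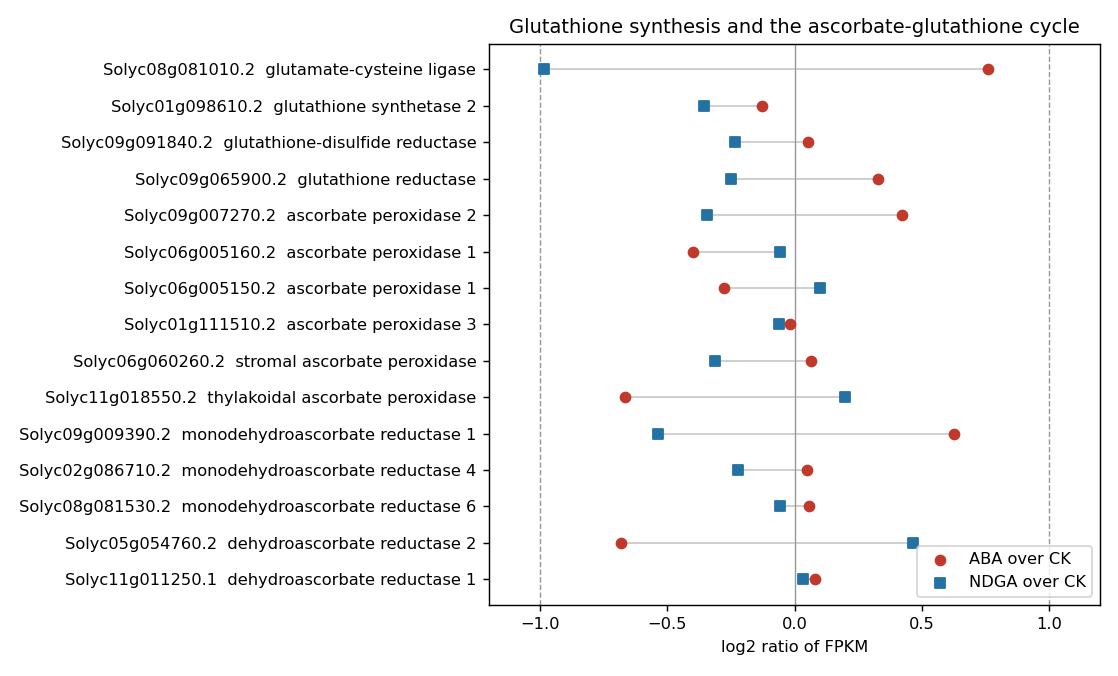
Log2 ratios of FPKM, ABA over CK and NDGA over CK, for chosen genes of glutathione synthesis and of the ascorbate-glutathione cycle, with the larger entry where a gene has several. Solyc06g075520.2 (dehydroascorbate reductase 2) and Solyc08g059760.2 (ascorbate peroxidase 6) are not drawn. Dashed lines mark 2-fold, which no gene drawn passes. Among those drawn, glutamate-cysteine ligase spreads widest, at 0.76 with ABA and -0.99 with NDGA.

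Class III and other peroxidases differed from CK more often than the other classes, and in opposite directions after the injections. Of their 47 entries, 21 had a mean of at least 1 FPKM. With ABA, 8 of these 21 were at least 2-fold lower than CK and 2 at least 2-fold higher, and 17 lay below CK. With NDGA, 8 of the 21 were at least 2-fold higher and none lower, and 17 lay above CK. Of all entries, 47.9% lay below CK with ABA and 52.9% above CK with NDGA. The shares of 38.1% lower with ABA and 38.1% higher with NDGA stand beside 10.1% and 7.41% of all entries, but most of these peroxidases were at low levels, where fewer fragments stand behind a value. Of the 21, 6 had a mean of at least 10 FPKM, 2 of them related to haloperoxidases. The filter takes the mean over the 3 groups, so a high value with NDGA helps an entry to pass it. The counts are of entries. Solyc10g076240.1 stands by 1 entry among the 2 higher with ABA (log2 1.02) and by the other among the 8 lower (log2 -2.19).

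Solyc01g006290.2 (peroxidase 2) was the most abundant of them, with 75.1 FPKM with ABA, 149 FPKM with NDGA and 79.6 FPKM in CK, a 1.87-fold higher value with NDGA than in CK. Solyc02g080530.2 had 1.72 FPKM with ABA, 24.3 FPKM with NDGA and 7.56 FPKM in CK, and so was 4.39-fold lower than CK with ABA and 3.21-fold higher with NDGA. Solyc03g033690.1 had 8.05 FPKM with ABA, 20.1 FPKM with NDGA and 9.65 FPKM in CK. These genes were high with NDGA, whereas others were mainly low with ABA. Solyc02g079500.2 had 11.3 FPKM with ABA, 28.9 FPKM with NDGA and 26.7 FPKM in CK, and Solyc02g087190.1 had 3.8, 13.4 and 9.81 FPKM. Solyc04g071890.2 had 3.32 FPKM with ABA, 6.67 FPKM with NDGA and 6.31 FPKM in CK. These genes had CK values close to those with NDGA. Solyc02g079510.2, the neighbour of Solyc02g079500.2, had 1.57 FPKM with ABA, 2.94 FPKM with NDGA and 2.54 FPKM in CK.

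Among low peroxidases, Solyc04g064690.2 had 0.144 FPKM with ABA, 7.34 FPKM with NDGA and 1.97 FPKM in CK. Solyc06g050440.2 was the exception, with 3.09 FPKM with ABA, 0.453 FPKM with NDGA and 0.644 FPKM in CK. The gene Solyc10g076240.1 had 2 entries that disagreed, with 1.76 FPKM with ABA, 13.1 FPKM with NDGA and 0.868 FPKM in CK in the larger and 0.586, 4.02 and 2.68 FPKM in the smaller. The class also held 4 entries annotated as vanadium-dependent haloperoxidase-related acid phosphatases, which summed to 90.6 FPKM with ABA, 88.1 FPKM with NDGA and 90.2 FPKM in CK and are not class III peroxidases. The highest of them, Solyc10g006140.2, had 40.3 FPKM with ABA, 54.3 FPKM with NDGA and 51 FPKM in CK. Without them, the median log2 ratio of the remaining 17 entries was -0.93 for ABA against CK and 0.90 for NDGA against CK, beside -0.69 and 0.45 with them. The class median for ABA against CK, with them, was -0.36 without the filter on low values and -0.33 with a pseudocount of 1 FPKM. The orthology of a peroxidase (K00430) was given for 22 members, of which 7 had a mean of at least 1 FPKM. Their median log2 ratio was -0.93 for ABA against CK and 0.445 for NDGA against CK. With ABA 3 of the 7 were at least 2-fold lower (42.9%, against 10.1% of all entries). With NDGA 2 were at least 2-fold higher (28.6%, against 7.41%).

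**Figure D5:**
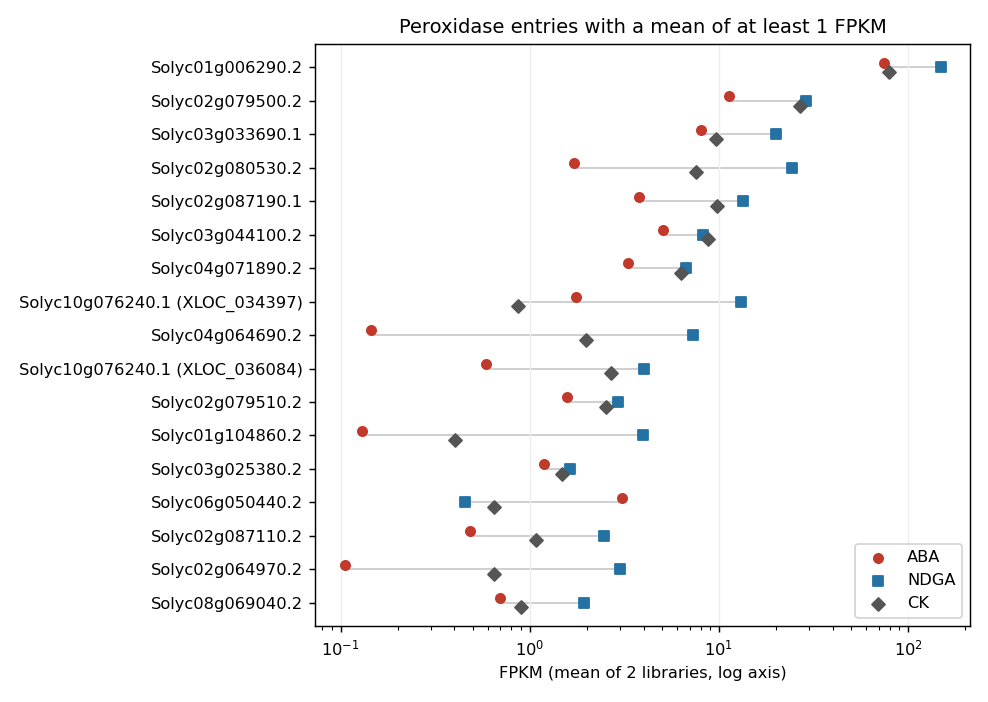
FPKM of the 17 peroxidase entries with a mean of at least 1 FPKM, without the haloperoxidase-related entries, with ABA, with NDGA and in CK on a log axis. Solyc01g006290.2 leads at 149 FPKM with NDGA, and Solyc06g050440.2 is highest with ABA at 3.09 FPKM.

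Peroxiredoxins, which reduce peroxides through a reactive cysteine, were even across the groups apart from a single gene. Thioredoxin-dependent peroxidase 1 (Solyc07g020860.2) had 565 FPKM with ABA, 402 FPKM with NDGA and 478 FPKM in CK. Peroxiredoxin IIF (Solyc01g079820.2), a mitochondrial form, had 56.1, 57.6 and 58.6 FPKM, and 2-cysteine peroxiredoxin B (Solyc10g082030.1), a chloroplast form, had 42.1, 47.6 and 47.3 FPKM. The 1-cysteine peroxiredoxin 1 (Solyc03g096040.2), which in Arabidopsis is known from seeds, had 110 FPKM with ABA, 235 FPKM with NDGA and 102 FPKM in CK, 2.31-fold higher with NDGA than in CK.

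Seed markers moved with the same group, although seeds were discarded. Of the 66 entries annotated as oleosin, cruciferin, seed storage albumin or the lipid-transfer and 2S albumin superfamily, 43 had a mean of at least 1 FPKM. With NDGA, 27 of 40 with a ratio were at least 2-fold higher than CK and none lower, beside 7.41% and 3.11% of all entries. With ABA 5 of 39 were higher and 15 lower, beside 4.72% and 10.1% of all entries. Seed storage albumin 5 (Solyc08g080490.2) had 961 FPKM with ABA, 5783 FPKM with NDGA and 2557 FPKM in CK, and cruciferin 3 (Solyc03g005580.2) had 25.6, 698 and 417 FPKM. The summed level of the list was 6529 FPKM with ABA, 40250 FPKM with NDGA and 11510 FPKM in CK, but a single entry (Solyc06g073660.2) gave 11530 FPKM with NDGA and was listed at 0 with ABA and in CK. The 19 entries named as seed storage albumins, cruciferin or oleosins, a list taken after the values were seen, summed to 3125 FPKM with ABA, 12760 FPKM with NDGA and 5643 FPKM in CK. Of their 18 ratios with NDGA, 14 were at least 2-fold higher than CK and none lower. With ABA, 1 of 17 was higher and 5 were lower. The other entries of the 66 carry only the superfamily name. The part of seed RNA in the values of 1-cysteine peroxiredoxin 1 and of the peroxidases was not tested.

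Thioredoxins are small proteins that reduce disulfides in their targets, and they are themselves reduced by thioredoxin reductases. The 6 reductase entries lay within 0.48 of CK on the log2 scale in both comparisons. Ferredoxin/thioredoxin reductase subunit A (Solyc01g087520.2), part of the light-driven chloroplast system, had 52.6 FPKM with ABA, 34.7 FPKM with NDGA and 39.9 FPKM in CK. NADPH-dependent thioredoxin reductase A (Solyc02g082250.2) had 44.1 FPKM with ABA, 33.9 FPKM with NDGA and 34.1 FPKM in CK. Its paralogue Solyc03g032000.2 had 17.8, 19.8 and 19.7 FPKM. The catalytic subunit of the ferredoxin system (Solyc02g087230.2) had 20.3 FPKM with ABA, 29.2 FPKM with NDGA and 20.9 FPKM in CK. The chloroplast NADPH-dependent thioredoxin reductase C was given as Solyc10g080080.1, with 16.7, 12.1 and 14.6 FPKM, and as Solyc04g016010.2, with 4.67, 5.35 and 5.71 FPKM. The reductases were thus among the most even members.

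Thioredoxins and proteins of the thioredoxin fold were the largest class, with 84 entries, of which 74 had a mean of at least 1 FPKM. With ABA, 3 of 72 were at least 2-fold higher than CK and 7 lower, and with NDGA 4 of 74 were higher and 1 lower. The shares with ABA, 4.17% and 9.72%, lay near the 4.72% and 10.1% of all entries, and those with NDGA were 5.41% and 1.35%, beside 7.41% and 3.11%. The most abundant, Solyc01g100320.2, carries the orthology of a protein disulfide isomerase, an enzyme of protein folding in the endoplasmic reticulum, and had 796 FPKM with ABA, 360 FPKM with NDGA and 637 FPKM in CK. Solyc07g053550.1, annotated only as a thioredoxin superfamily protein, had 586 FPKM with ABA, 166 FPKM with NDGA and 251 FPKM in CK, 2.34-fold higher with ABA than in CK. These members were highest with ABA. Solyc04g009230.2 (75.2, 33.2 and 44.5 FPKM with ABA, with NDGA and in CK) and Solyc06g083570.2, an entry of which had 11.1, 6.68 and 4.7 FPKM, were also highest with ABA, but they are annotated as thioredoxin-like U5 snRNP proteins of the splicing machinery. The larger entry of Solyc06g083570.2 lay at log2 0.29 for ABA against CK and -0.40 for NDGA against CK. The larger entry of Solyc12g095820.1 had 9.27 FPKM with ABA, 4.58 FPKM with NDGA and 11.3 FPKM in CK, and so was low with NDGA. Its other entry was not, at log2 -0.07 for NDGA against CK and -0.59 for ABA against CK.

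Several thioredoxin-fold genes were low with ABA. Solyc12g094380.1 had 26.7 FPKM with ABA, 98.3 FPKM with NDGA and 80.3 FPKM in CK. Solyc05g006850.2 (thioredoxin 2) had 4.33 FPKM with ABA, 26.3 FPKM with NDGA and 20.3 FPKM in CK, and its neighbour Solyc05g006870.2 had 0.0951, 2.18 and 2.12 FPKM. The 4 neighbouring thioredoxin 2 genes on chromosome 5 (1453125 to 1486270) summed to 4.96 FPKM with ABA, 29.6 FPKM with NDGA and 23.7 FPKM in CK. The gene Solyc01g067460.1 had 1.74 FPKM with ABA, 7.5 FPKM with NDGA and 8.32 FPKM in CK in its larger entry, but 0.325, 4.54 and 0.798 FPKM in the smaller, so that its entries disagreed on NDGA. Solyc08g062970.1 and Solyc09g074590.1 were listed at 0 with ABA, which may be a missing estimate, and had 3.1 and 2.8 FPKM with NDGA and 1.88 and 1.8 FPKM in CK. By contrast, thioredoxin H-type 1 (Solyc04g080850.2), of the cytosolic h type, had 208 FPKM with ABA, 212 FPKM with NDGA and 176 FPKM in CK.

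Members named after chloroplast proteins of Arabidopsis, a list of 28 entries taken after the values were seen, were mostly even. They summed to 987 FPKM with ABA, 1037 FPKM with NDGA and 1029 FPKM in CK. The list may not hold every chloroplast form. It leaves out WCRKC thioredoxin 1 (Solyc10g078920.1), whose entries lay at log2 1.91 and 0.29 for ABA against CK. None of the 28 was 2-fold higher than CK with ABA and 1 was 2-fold lower, beside 4.72% and 10.1% of all entries. Below CK lay 19 of 28, beside 47.9% of all entries, with a median log2 ratio of -0.24. The 9 entries of atypical Cys His rich thioredoxins in this list lay lower, with a median of -0.69 for ABA against CK and 0.43 for NDGA against CK. Their most abundant entry, atypical Cys His rich thioredoxin 4 (Solyc12g019740.1), had 67.6 FPKM with ABA, 132 FPKM with NDGA and 98.2 FPKM in CK. Green plastid markers moved far more in the same comparison. Of 98 entries annotated for photosystems, light harvesting or chlorophyll a/b binding, 68 had a mean of at least 1 FPKM. With ABA, 39 of 66 were at least 2-fold lower than CK and 2 higher, beside 10.1% and 4.72% of all entries. Their median log2 ratio was -1.60. With NDGA, 6 of 62 were at least 2-fold higher and 6 lower than CK, beside 7.41% and 3.11% of all entries. Above CK lay 46, beside 52.9% of all entries, with a median of 0.34. These markers summed to 15290 FPKM with ABA, 17490 FPKM with NDGA and 37520 FPKM in CK, with 27 entries listed at 0 in some group. The sums were set by 3 entries of photosystem II reaction center protein A (Solyc12g039030.1 and Solyc02g021290.1), and without them, a choice made after the values were seen, they were 2007 FPKM with ABA, 4041 FPKM with NDGA and 3744 FPKM in CK. How far plastid state takes part in the values of the chloroplast members was not tested.

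Some genes had several entries, and these did not always give the same picture. In WCRKC thioredoxin 1 (Solyc10g078920.1), a thioredoxin with a variant active site, an entry had 393 FPKM with ABA, 637 FPKM with NDGA and 104 FPKM in CK, and the other, at the same locus on chromosome 10 (59894134 to 59896330), had 40.1, 39.9 and 32.9 FPKM. The first was 3.76-fold higher than CK with ABA and 6.10-fold higher with NDGA, and the second was 1.22-fold and 1.21-fold higher. Among the 24 genes whose entries all had a mean of at least 1 FPKM, only 1 entry of the pair passed 2-fold in 3 genes for ABA against CK and in 6 for NDGA against CK. Of the 258 entries, 71 shared their locus with another entry. Strand was not stated, so reads from overlapping or antisense transcripts at such loci cannot be told apart from those of the member.

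Other genes of the pathway, taken by their annotation, were counted by the same rule, for which the shares of all entries were 4.72% higher and 10.1% lower with ABA and 7.41% higher and 3.11% lower with NDGA. Glutaredoxins, which are reduced by glutathione, had 20 entries with a mean of at least 1 FPKM, of which 1 was at least 2-fold higher and 7 lower with ABA than in CK, and 3 higher and none lower with NDGA than in CK. These counts are of entries, and some entries share a gene. Solyc06g082180.1 gave both the higher entry with ABA (log2 2.75) and a lower one (log2 -1.81). The lower entries with ABA include all those of Solyc02g087850.1 and Solyc06g008760.1. The largest entry of Solyc06g008760.1 had 2.81 FPKM with ABA, 38.4 FPKM with NDGA and 15.6 FPKM in CK. Methionine sulfoxide reductases, which repair oxidised methionine with electrons from thioredoxin, had 6 such entries, of which none passed 2-fold with ABA and 2 were lower with NDGA than in CK. They were the very abundant Solyc03g111720.2, with 11052 FPKM with ABA, 2149 FPKM with NDGA and 7288 FPKM in CK, and Solyc01g080410.2, with 1454, 218 and 763 FPKM.

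Of the 3 alternative oxidase entries, which bypass the respiratory chain and limit its oxygen radicals, Solyc08g075540.2 was at least 2-fold higher than CK with ABA, at 115 FPKM, against 35.8 FPKM with NDGA and 52 FPKM in CK. In ascorbate synthesis, 1 of 5 entries was 2-fold lower with ABA than in CK (L-galactono-1,4-lactone dehydrogenase, Solyc10g079470.2, 1.89 FPKM with ABA, 5.94 FPKM with NDGA and 4.90 FPKM in CK), and none passed 2-fold with NDGA. The only respiratory burst oxidase, an enzyme that makes superoxide outside the cell, with a mean of at least 1 FPKM (Solyc03g117980.2) had 0.828 FPKM with ABA, 5.88 FPKM with NDGA and 3.06 FPKM in CK. Of 4 metallothionein entries none passed 2-fold with ABA and 1 was higher with NDGA. The ferritin 2 genes Solyc06g050980.2 and Solyc05g052470.2 stayed near CK, at log2 -0.12 and -0.11 with NDGA. Of the 3 entries taken by the word ferritin, none passed 2-fold with ABA and 1 was higher with NDGA. It was Solyc02g094160.1, a ferritin/ribonucleotide reductase-like family protein, with 0.542, 1.83 and 0.809 FPKM with ABA, with NDGA and in CK. Sulfiredoxin (Solyc02g068710.2), which repairs overoxidised peroxiredoxins, had 12.9 FPKM with ABA, 14.2 FPKM with NDGA and 16.1 FPKM in CK.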

How the data were processed

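The authors aligned reads to SL2.40 (ITAG2.3) with TopHat2 2.0.9, computed FPKM with Cufflinks 2.1.1 and averaged the 2 replicates of each group. The deposited FPKM are these means, so no test, SD or n per value was possible, and depth per value is unknown. Strand was not stated in the sources used here. Ratios were formed without a pseudocount between values above 0, in entries with a mean over the 3 groups of at least 1 FPKM, and a 2-fold ratio was counted. Entries merging several genes (7) and 1 entry named in a smaller table were left out. Annotations came from the files, and 0 gene identifiers were found in the RefSeq table. Members and lists were chosen with earlier results of these data known. Named genes were, per class, the 2 most abundant, the 2 largest rises and falls of at least 2-fold per comparison at a mean of at least 5 FPKM, those listed at 0 in a group with at least 5 FPKM in another, all members of classes of up to 6, and the largest tandem group (gene numbers at most 30 apart). Others were chosen after their values were seen. Alternatives were no filter, a mean of at least 5 FPKM, a pseudocount of 1 FPKM, 3-fold, rescaling to a median log2 ratio of 0 and genes with a single entry. The counting was tested on simulated data. Python 3.11.15, pandas 2.3.3 and matplotlib 3.10.9 were used.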

Additional observations from a re-analysis of the deposited data

Results flagged for a closer look

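Entries that merge several genes entered no count or median above, and 2 of the 7 were at least 2-fold above CK. The entry over Solyc07g056430.2 and Solyc07g056440.2, neighbours of Solyc07g056420.2 and likewise annotated as glutathione S-transferase TAU 25, had 241 FPKM with ABA, 38 FPKM with NDGA and 96 FPKM in CK, a log2 ratio of 1.33 for ABA against CK and -1.33 for NDGA against CK. The entry over 4 genes of chromosome 1 annotated as catalase 1 (Solyc01g099420.1 to Solyc01g099450.2) had 4.55 FPKM with ABA, 2.05 FPKM with NDGA and 1.23 FPKM in CK, a log2 ratio of 1.89 for ABA against CK. These differences were not tested, since each group has a single mean.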

How the results depend on the processing

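No paired analysis was possible because the columns hold the mean of the replicates, and for the same reason no replicate could be left out. With ABA against CK, the 7 higher entries became 15 without the filter (6.61% of members, against 6.84% of all entries). They became 2 at 3-fold (1.04% against 2.01%) and 4 among genes with a single entry (2.84% against 3.29%). The 23 lower became 8 at a mean of at least 5 FPKM (5.23% against 6.16%) and 15 at 3-fold (7.81% against 5.21%). With NDGA against CK, the 15 higher became 6 at 5 FPKM (3.92% against 4.21%) and 9 at 3-fold (4.66% against 3.07%). The 5 lower became 10 without the filter (4.33% against 4.95%) and 3 at 5 FPKM (1.96% against 2.21%). They were also 3 at 3-fold (1.55% against 1.21%) and among genes with a single entry (2.11% against 2.23%). For ABA against NDGA, the 14 higher became 22 without the filter (9.65% against 8.36%) and 5 at 3-fold (2.62% against 2.9%). The 40 lower became 21 at 5 FPKM (13.7% against 10.9%) and 22 at 3-fold (11.5% against 9.52%). The peroxidase median for ABA against CK was -0.36 without the filter and -0.33 with the pseudocount. For ABA against NDGA it was -1.32, and -0.997 without the filter, -0.98 with the pseudocount and -1.01 for genes with a single entry. Chosen after seeing the data, leaving out the haloperoxidases gave a median of 0.90 for NDGA against CK, and leaving out Solyc07g056420.2 gave log2 ratios of the tau sums of 0.17, -0.17 and 0.35 for ABA against CK, NDGA against CK and ABA against NDGA, beside 1.19, -0.94 and 2.13. The other 78 alternative values of counts, medians and sums stayed within 1.5 times or 0.25 on the log2 scale. Among the named genes, no ratio past 2-fold changed its sign with the pseudocount or with rescaling.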

Other observations

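The other merged entries gave the following values. Solyc12g011310.1 with Solyc12g011320.1 (TAU 19) had 513 FPKM with ABA, 604 FPKM with NDGA and 400 FPKM in CK, and Solyc07g056470.2 with Solyc07g056480.2 (TAU 19) had 4.83, 5.58 and 4.75 FPKM. Solyc06g076630.2 with Solyc06g076640.2 (peroxidase) had 16.5 FPKM with ABA, 34.9 FPKM with NDGA and 29.1 FPKM in CK, and Solyc01g058520.2 with Solyc01g058530.2 (peroxidase) had 1.30, 1.03 and 1.24 FPKM. Solyc01g100630.1 with Solyc01g100640.2 (catalase 2) had 28.5 FPKM with ABA, 15.8 FPKM with NDGA and 16.3 FPKM in CK. The entry annotated as overexpressor of cationic peroxidase 3 (Solyc08g061140.2), which a smaller table names, had 27.8 FPKM with ABA, 23.3 FPKM with NDGA and 27.9 FPKM in CK.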
